A study of Mus musculus with 6 samples.

Results

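Methionine cycle genes and small-molecule methyltransferase genes were followed in the livers of mice fed a regular diet (RD) or a high-cholesterol diet (HCD). The set held 10 of the 20673 genes in the deposited tables, found by exact gene name, namely Inmt, Nnmt, Gnmt, Pemt, Gamt, Mat1a, Ahcy, Bhmt, Bhmt2 and Cbs. The genes were chosen by function with the RD and HCD expression values of these same livers known, and Inmt was put at the centre because its level was higher in every HCD liver. The differences between the diets are therefore described here with their errors, no p-value is given for these genes, and the count of them called in the whole-table fit is no evidence about them. All 10 genes passed the filter on low counts, as did 13105 genes in all.

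RNA sequencing was done on whole liver of C57BL/6J mice, an inbred wild-type strain, about 3 months old per the methods of the study, with 3 mice on RD and 3 on HCD, 1 library per mouse. The RD was a regular rodent diet, and the labels list these mice as not treated. The HCD was eaten for 3 days and, per the methods of the study, held added cholesterol, cocoa butter and sodium cholate (a bile acid salt that helps cholesterol uptake), so that cholesterol, fat and cholate cannot be told apart in this comparison. The livers were taken after the diet alone. The library names differ in form between the diets, so any difference in handling between these naming series cannot be told apart from diet. Both sexes were used in the study, but the sources used here do not tie a sex to a liver.

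The methionine cycle makes S-adenosylmethionine, the methyl donor of most methyltransferases, and recovers methionine after the methyl group has been given away. In liver, a main site of this cycle, methionine adenosyltransferase makes the donor, several abundant methyltransferases spend it, and S-adenosylhomocysteine hydrolase clears the product. The homocysteine left over is either methylated again, with betaine or a folate as the source of the methyl group, or passed on to cysteine by transsulfuration.

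The counts on genes totalled 13771630 to 23129576 per library with RD and 13935491 to 18545549 with HCD. Alb, the defining hepatocyte transcript, was between 63316 and 105649 CPM in all livers, where CPM is the usual abbreviation for a gene's share of the library total, scaled by TMM factors (trimmed mean of M-values). HCD replicate 1 stood apart from the other libraries: it had Xist at 254 CPM against 0 in the other 5 livers, none of 4 Y-linked genes, and 8 male-biased liver genes at a summed 106 CPM against 5762 to 8364 CPM elsewhere. For the 10 genes and the one-carbon genes named below, the value without this liver is given where leaving it out changed a call or a sign or moved the difference by over 1.5 times. Of 8 markers of Kupffer cells, the macrophages of the liver, edgeR called none at the threshold explained below, their median log2 fold change was 0.86, and their sum was 132 to 226 CPM with RD and 187 to 413 CPM with HCD. The sum of 8 stellate cell markers was 320 to 393 CPM with RD and 359 to 615 CPM with HCD, and that of 8 endothelial markers was 130 to 212 CPM and 147 to 249 CPM, with none called in either list. Of the 5 red blood cell genes tested, Hba-a1 and Hbb-bs were called higher, and the sum over all 6 listed genes was 138 to 239 CPM with RD and 177 to 468 CPM with HCD. The pericentral list, 8 genes of hepatocytes near the central vein, summed to 6229 to 10630 CPM with RD and 7772 to 8756 CPM with HCD. The periportal list of 8 genes summed to 6076 to 12367 CPM and 6588 to 11356 CPM, and its member Hsd17b13 was called higher. Markers of bile duct cells summed to 37.4 to 91.9 CPM with RD and 64.6 to 98.1 CPM with HCD, and those of leukocytes to 6.78 to 11.4 CPM with RD and up to 15.8 CPM with HCD, with none called. The part of these other markers in the results below was not tested, and in whole liver a change in the number of cells of a type cannot be told apart from a change in RNA per cell.

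Inmt encodes indolethylamine N-methyltransferase, which methylates tryptamine and related amines. The gene lies on the minus strand of chromosome 6 (55170626 to 55175043 in GENCODE M21 on GRCm38), and its exons span 1600 bases. The sequence before its start is shown because Inmt carries the diet difference described here. That of Gnmt is shown because Gnmt had the highest FPKM, a level divided by gene length, of the 10 genes in all RD livers. Both are from RefSeq on GRCm38.p6, on the minus strand, and end at the base before the M21 gene. Of the 10 genes, 8 matched an entry in the promoter table, all but Nnmt and Mat1a. Capitals mark matches to any of 3 motifs on either strand. The first is TATAAA, the core of the TATA box. Another is CCAAT, the CCAAT box. The last is AGGTCA, a core element of many nuclear receptor sites, which on the other strand is read backwards in complement.
Inmt, chr6:55175044-55175240: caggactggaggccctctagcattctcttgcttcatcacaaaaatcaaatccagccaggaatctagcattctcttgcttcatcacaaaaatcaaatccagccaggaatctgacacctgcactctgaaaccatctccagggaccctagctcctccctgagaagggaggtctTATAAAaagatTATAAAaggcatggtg
Gnmt, chr17:46729169-46729415: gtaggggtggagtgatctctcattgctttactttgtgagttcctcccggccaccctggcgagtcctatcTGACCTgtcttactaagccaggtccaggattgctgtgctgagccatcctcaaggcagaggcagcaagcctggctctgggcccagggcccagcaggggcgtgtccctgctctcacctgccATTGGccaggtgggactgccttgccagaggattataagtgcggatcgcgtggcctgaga

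The Inmt sequence held TATAAA 2 times, with first bases 27 and 16 bases before the M21 start. They were 80 and 69 bases before the RefSeq start, which lies inside the M21 gene. Other distances given here are from the M21 start. TATAAA occurs on either strand in 12.4% of the 32851 promoter windows of 250 bases in the table. The Inmt window held neither CCAAT nor AGGTCA, which occur in 33.8% and 14.0% of windows. A stretch of 46 bases in the Inmt sequence, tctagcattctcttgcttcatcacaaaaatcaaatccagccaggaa, was present 2 times in direct succession, beginning 182 and 136 bases before the start. The Gnmt window held AGGTCA on the reverse strand 178 bases before the M21 start and CCAAT on the reverse strand 59 bases before it, and no TATAAA. These matches describe letters in the sequence and not sites of binding.

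Inmt was at 304, 248 and 376 CPM in RD replicates 1, 2 and 3, and at 1507, 1520 and 1342 CPM in HCD replicates 1, 2 and 3. The diets did not overlap, and the lowest HCD liver was 3.57 times the highest RD liver. The means were 309 ± 63.9 CPM with RD and 1457 ± 99.3 CPM with HCD (SD, n = 3 each). HCD exceeded RD by 2.24 on the log2 scale in edgeR's quasi-likelihood fit (SE 0.20, 95% interval 1.79 to 2.68), a 4.71-fold difference (3.46 to 6.42). The female-pattern liver, HCD replicate 1, lay between the other HCD livers, and without it the log2 fold change was 2.21. Relative spread was smaller with HCD, at a coefficient of variation of 6.82% against 20.7% with RD.

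On the scale of deposited FPKM, which divides by gene length and so allows genes to be compared within a liver, Inmt moved from the middle of the 10 genes to the top. Inmt was at 276, 223 and 351 FPKM in the RD livers, in 5th place in replicate 1 and in 6th place in replicates 2 and 3. With HCD it was at 1421, 1374 and 1258 FPKM, in first place in replicates 1 and 2 and behind Gnmt in replicate 3. Among all 20673 genes, Inmt ranked 255th, 288th and 215th in the RD livers and 52nd, 64th and 77th in the HCD livers. Of the 1285 tested genes that averaged 100 CPM or more, Inmt had the 7th largest log2 fold change upward, and it was 93rd among all genes tested.

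**Figure D1:**
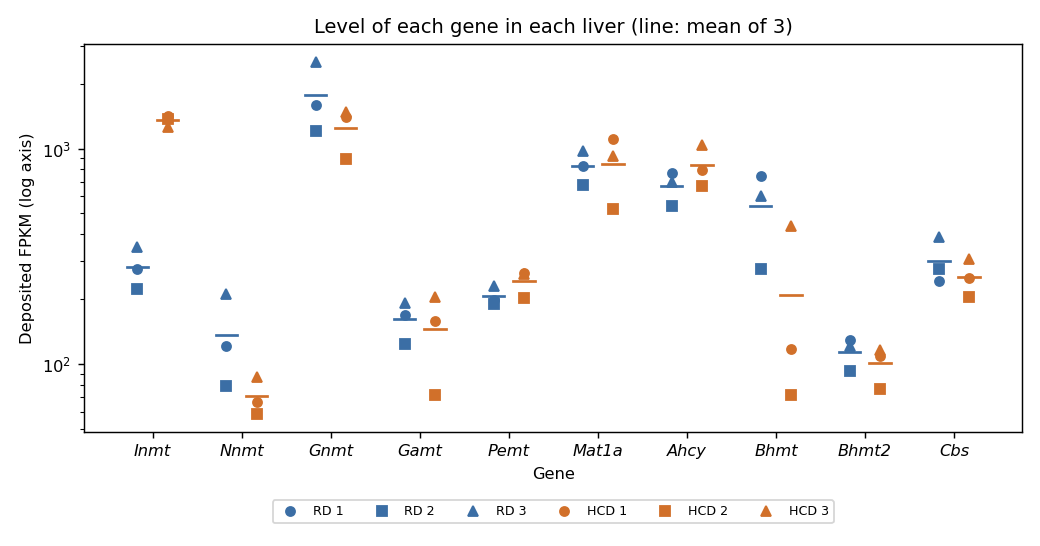
Deposited FPKM of the 10 genes (log axis) in each of 3 RD livers (blue) and 3 HCD livers (orange), with a marker shape per replicate number and a line at the mean of each diet. Inmt is at 223 to 351 FPKM with RD and 1258 to 1421 FPKM with HCD, and the points of the 2 diets overlap for each of the other genes.

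Nnmt encodes nicotinamide N-methyltransferase, a close relative of Inmt that methylates nicotinamide. Nnmt (chromosome 9, 48591877 to 48605153) was at 131, 87.1 and 222 CPM in the RD livers and at 69.6, 63.8 and 91.5 CPM in the HCD livers. The highest HCD liver, replicate 3, lay just above the lowest RD liver, replicate 2, so the diets overlapped. Its fitted log2 difference, HCD minus RD, was -0.97 (standard error 0.31, 95% interval -1.68 to -0.26), opposite in sign to that of Inmt. It was -0.55 without RD replicate 3 and -1.24 without RD replicate 2. Within a liver, Inmt was 2.28, 2.81 and 1.67 times Nnmt on the FPKM scale with RD and 21.3, 23.5 and 14.4 times with HCD.

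Gnmt encodes glycine N-methyltransferase, an abundant liver enzyme that turns glycine into sarcosine and keeps the supply of S-adenosylmethionine in check. Gnmt (chromosome 17, 46725664 to 46729168) was at 1316, 1011 and 2042 CPM with RD and at 1115, 743 and 1182 CPM with HCD. RD replicate 3 was the highest and HCD replicate 2 the lowest of the 6, and the other 4 livers were interleaved. On the log2 scale HCD minus RD was -0.52 (standard error 0.29, 95% interval -1.18 to 0.13). It was -0.20 without RD replicate 3 and -0.34 without HCD replicate 2. Gnmt was 5.74, 5.40 and 7.21 times as abundant as Inmt on the FPKM scale in the RD livers. In the HCD livers that ratio was 0.981, 0.649 and 1.17, so the ratios of the diets did not overlap.

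Gamt encodes guanidinoacetate N-methyltransferase, which carries out the last step of creatine synthesis. Gamt (chromosome 10, 80258151 to 80261012) was at 168, 125 and 186 CPM with RD and at 151, 71.8 and 197 CPM with HCD. The HCD livers held both the lowest and the highest value. The difference was -0.19 on the log2 scale (standard error 0.33, 95% interval -0.94 to 0.56), and it was 0.13 without HCD replicate 2, -0.06 without RD replicate 3, -0.34 without RD replicate 2 and -0.52 without HCD replicate 3.

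Pemt encodes phosphatidylethanolamine N-methyltransferase, which makes phosphatidylcholine by 3 methylations. Pemt (chromosome 11, 59970614 to 60046489) had the narrowest spread of the 10 genes with RD, a coefficient of variation of 8.42%. It was at 287, 278 and 325 CPM with RD and at 368, 295 and 367 CPM with HCD. HCD replicates 1 and 3 were above all RD livers and HCD replicate 2 was among them. The fitted log2 difference was 0.21 (standard error 0.15, 95% interval -0.14 to 0.56).

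Mat1a encodes the liver methionine adenosyltransferase, the enzyme that makes S-adenosylmethionine. Mat1a (chromosome 14, 41105035 to 41124412) was at 1988, 1630 and 2269 CPM with RD and at 2539, 1251 and 2140 CPM with HCD. Its HCD values lay on both sides of the RD values, with means of 1962 ± 320.1 and 1977 ± 659 CPM (SD, n = 3 each). Its log2 difference was 0.01 (standard error 0.27, 95% interval -0.61 to 0.63). It was -0.21 without HCD replicate 1, the liver with the female pattern, and 0.25 without HCD replicate 2.

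Ahcy encodes S-adenosylhomocysteine hydrolase, which removes the inhibitory product of methyl transfer. Ahcy (chromosome 2, 155059310 to 155074497) was at 1484, 1064 and 1308 CPM with RD and at 1485, 1294 and 1951 CPM with HCD. Only HCD replicates 1 and 3 were above all RD livers, the former by a narrow margin, and the log2 fold change was 0.30 (standard error 0.21, 95% interval -0.19 to 0.78). It was 0.11 without HCD replicate 3 and 0.18 without RD replicate 2. Ahcy can share reads with the gene Gm4737, 99.7% identical over 2083 aligned transcript bases, and with the pseudogene Gm9826, 99.2% identical over 1299 bases. These copies held 14.3% to 16.3% of the summed counts of Ahcy and both copies in each liver. How much of Ahcy's own RNA was counted on them is uncertain.

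Bhmt encodes betaine-homocysteine methyltransferase, which remakes methionine with a methyl group from betaine, a product of choline. Bhmt (chromosome 13, 93616675 to 93637961) was the most variable of the 10 genes, with 10.3-fold between the highest and lowest liver. It was at 2952, 1108 and 2332 CPM with RD and at 449, 287 and 1680 CPM with HCD. HCD replicates 1 and 2 were below every RD liver, and HCD replicate 3 was between RD replicates 2 and 3. The log2 difference of -1.40 had a wide error (standard error 0.63, 95% interval -2.85 to 0.04). It was -2.54 without HCD replicate 3 and -1.12 without HCD replicate 1, so that leaving out 1 liver, HCD replicate 3, moved it by more than the spread between livers.

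Bhmt has a copy, Gm5096, 99.4% identical over 1869 aligned transcript bases, and a processed pseudogene, Bhmt-ps1, 99.0% identical over 1219 bases. Across livers whose Bhmt level differed up to 10.3-fold, the copies took 8.95% to 9.88% of the summed counts. The antisense transcript Gm15622 shares 187 exon bases with Bhmt and had 0 to 13 counts per liver, against 4161 to 61420 counts of Bhmt.

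Bhmt2, the neighbour of Bhmt on chromosome 13 (93655720 to 93674302), encodes a methyltransferase that remakes methionine from S-methylmethionine. Bhmt2 was at 219, 159 and 199.5 CPM with RD and at 179, 131 and 190 CPM with HCD, and the diets overlapped. For Bhmt2 the log2 difference was -0.21 (standard error 0.19, 95% interval -0.63 to 0.22). It was -0.06 without HCD replicate 2, -0.11 without RD replicate 1, -0.33 without RD replicate 2 and -0.32 without HCD replicate 3. On the FPKM scale Bhmt was 5.78, 2.98 and 5.01 times Bhmt2 with RD and 1.08, 0.935 and 3.78 times with HCD. The ratio was lowest in HCD replicates 1 and 2, and HCD replicate 3 lay within the range of the RD livers.

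Cbs encodes cystathionine beta-synthase, which commits homocysteine to cysteine synthesis. Cbs (chromosome 17, 31608894 to 31637238) was at 558, 643 and 868 CPM with RD and at 557, 471 and 686 CPM with HCD. RD replicate 3 was the highest and HCD replicate 2 the lowest, and the rest overlapped. HCD minus RD was -0.27 on the log2 scale (standard error 0.22, 95% interval -0.77 to 0.22). With RD replicate 3 left out the Cbs difference was -0.07, with HCD replicate 2 left out -0.15, and with HCD replicate 3 left out -0.43.

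**Figure D2:**
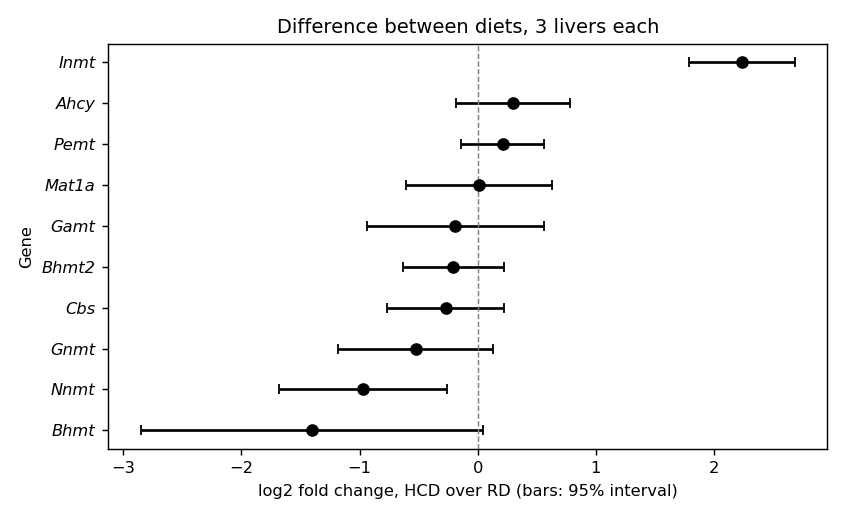
Log2 fold change of HCD over RD for the 10 genes (points) with its 95% interval (bars) from edgeR's quasi-likelihood fit, 3 livers per diet. Inmt stands at 2.24, the interval of Nnmt lies below 0, and the other 8 intervals include 0.

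Of the 10 genes, edgeR called 1 at an adjusted p under 0.05 (quasi-likelihood fit, p-values adjusted by Benjamini-Hochberg over all genes tested), and that gene was Inmt. Over all genes tested 3.27% were called, 1.95% higher and 1.32% lower, and nothing is read from the members' count because the diet difference was known when they were chosen. DESeq2's Wald test called Inmt and Nnmt, where it called 8.54% of all genes. Values of the diets were fully separate for 1 of the 10 genes, Inmt, against 27.6% of all genes tested. The log2 fold change was above 0 for 4 genes and below 0 for 6, with a median of -0.20 over the 10 genes and 0.0074 over all genes tested.

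The make-up of the 10 transcripts differed between the diets. Inmt held 5.45%, 6.05% and 5.57% of their summed FPKM in the RD livers. It held 25.0%, 33.2% and 20.6% in the HCD livers. The summed FPKM of the 10 genes was 5073, 3679 and 6305 with RD and 5684, 4141 and 6111 with HCD, so the sums of the diets overlapped.

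**Figure D3:**
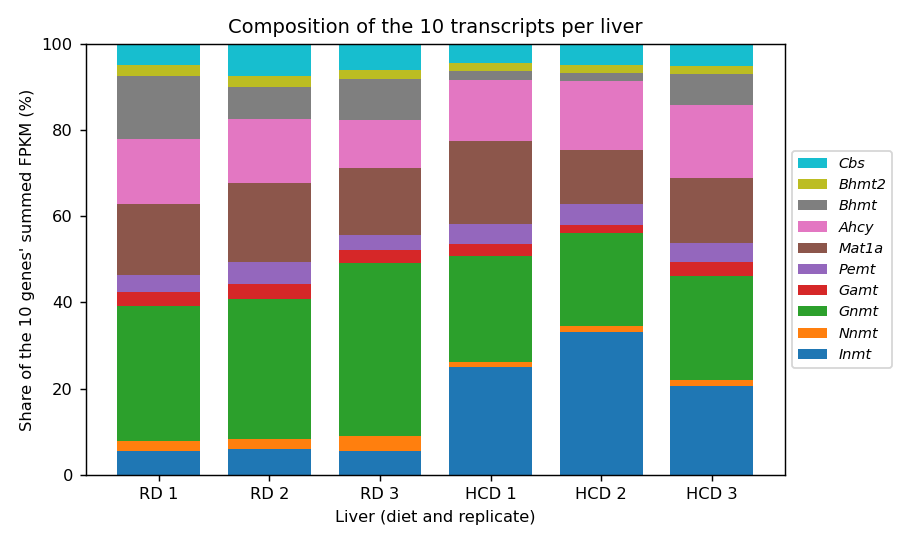
Share of each gene in the summed FPKM of the 10 genes, in percent, for each liver. The Inmt segment at the base of each bar is 5.45% to 6.05% with RD and 20.6% to 33.2% with HCD.

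The genes other than Inmt also varied together between livers of the same diet, which is described here without a test because the values of these livers were known when the genes were chosen. Deviations were taken as log2 of CPM plus 0.5 minus the mean of the 3 livers on the same diet. All 9 were below their diet mean in RD replicate 2 and in HCD replicate 2, with median deviations of -0.26 and -0.32. All 9 were above it in RD replicate 3 and in HCD replicate 3, with medians of 0.24 and 0.28. RD replicate 1 and HCD replicate 1 each had 4 of the 9 below the mean.

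Low in both replicates 2 and high in both replicates 3 was the pattern of 13.7% of all genes tested and of 25.3% of the 1285 genes that averaged 100 CPM or more. Of those abundant genes, 62.3% were below their diet mean in RD replicate 2 and 53.2% in HCD replicate 2, against 44.0% in RD replicate 3 and 31.4% in HCD replicate 3. Their median deviations in the same order were -0.04, -0.01, 0.02 and 0.08, in the same direction as the 9 genes and smaller. The part of these shifts in the pattern of the 9 genes was not tested. Inmt was also low in RD replicate 2 (-0.30) and high in RD replicate 3 (0.30), but with HCD it was 0.06 in replicate 2 and -0.12 in replicate 3. The labels do not pair livers with the same number, and the pattern is given as a description over 6 livers. The widest excursions were those of Bhmt, at 1.48 in HCD replicate 3 and -1.06 in HCD replicate 2.

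**Figure D4:**
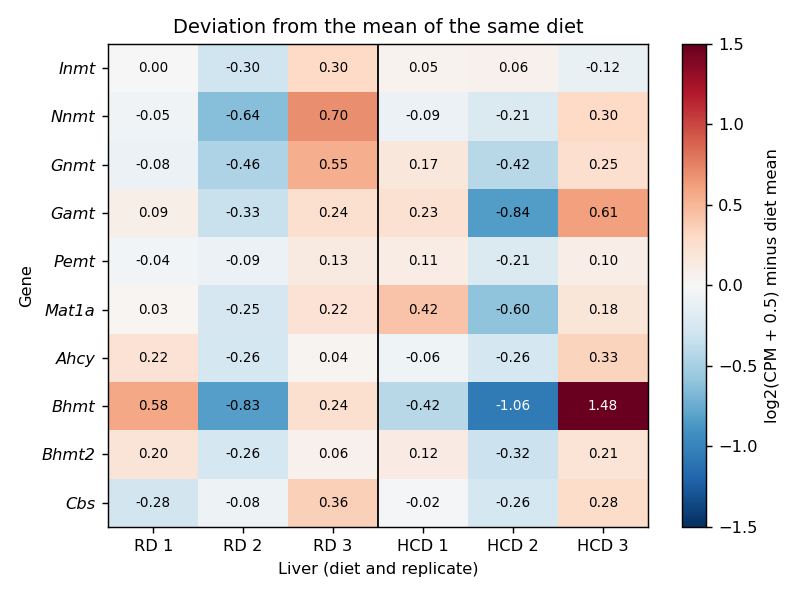
Deviation of each gene in each liver from the mean of its diet, in log2 of CPM plus 0.5 (red above, blue below). Apart from Inmt, every gene is below its mean in both replicates 2 and above it in both replicates 3.

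Other genes of one-carbon metabolism were taken from 7 lists with 71 entries, of which 67 were in the tables and 64 passed the filter on low counts. The names Pnmt, Asmt, Tmt1a and Tmt1b had no match. These lists too were chosen with earlier results of these data known, so the counts and adjusted p-values of their genes are given as description. Of the 64 genes, edgeR called 0 higher and 1 lower (1.56% against 3.27% of all genes tested). An unadjusted edgeR p of 0.05 was reached by 18 (28.1%), against 20.9% of all genes tested. Diets were fully separate for 17 of the 64 (26.6%, against 27.6% of all genes), and the median log2 fold change was -0.0071.

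The gene called was Csad, cysteine sulfinic acid decarboxylase, an enzyme of taurine synthesis that draws on the cysteine made by transsulfuration. Csad was at 465, 699 and 528 CPM with RD and at 132, 286 and 137 CPM with HCD. Every HCD liver was below every RD liver, and HCD replicate 2 was the highest of the HCD group. Csad fell by 1.61 on the log2 scale (SE 0.32, edgeR adjusted p = 0.0370). Csad was not called without RD replicate 1, 2 or 3 (adjusted p 0.106, 0.141 and 0.0795) or without HCD replicate 1 or 3 (adjusted p 0.0643 and 0.109). Its log2 difference was -1.42 without HCD replicate 1, and over 16 alternatives its adjusted p ranged from 1.5e-06 to 0.141.

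Of the other methionine cycle genes, 0 of 7 were called by edgeR or DESeq2, with 2 reaching an unadjusted p of 0.05, and Ahcyl2, a relative of Ahcy, differed most (log2 fold change -0.88, adjusted p = 0.176). Of 12 folate genes none was called by edgeR or DESeq2, with 2 reaching an unadjusted p of 0.05, and the mitochondrial folate enzyme gene Mthfd2l differed most (1.04, adjusted p = 0.209). EdgeR called none of 8 betaine and choline genes, where DESeq2 called Chka higher and Chdh lower, with 3 reaching an unadjusted p of 0.05. Among them the choline kinase gene Chka was at 67.2, 92.3 and 105 CPM with RD and at 113, 152 and 195 CPM with HCD, without overlap (log2 fold change 0.80, adjusted p = 0.102). In the list of transsulfuration and taurine genes edgeR called Csad and not the other 7, with 4 of the 8 reaching an unadjusted p of 0.05. Of those not called Ethe1, a mitochondrial enzyme of sulfide breakdown, had the largest difference (0.81, edgeR adjusted p = 0.0877), and it was called by DESeq2 (adjusted p = 0.0106) and by edgeR without a filter on low counts (adjusted p = 0.0458).

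Of 10 genes tested in the list of other small-molecule methyltransferases, which includes Tpmt, As3mt and the amidinotransferase gene Gatm of creatine synthesis, none was called by edgeR, and 4 reached an unadjusted p of 0.05. Hnmt, which inactivates histamine by methylation, was nearest to the threshold. Hnmt was at 18.0, 14.6 and 19.2 CPM with RD and at 24.2, 32.0 and 32.5 CPM with HCD, without overlap, a log2 difference of 0.77 (SE 0.18, adjusted p = 0.0552). It was called in 4 of 16 alternatives, among them the fit without HCD replicate 1 (log2 difference 0.90, adjusted p = 0.0408).

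EdgeR and DESeq2 called none of 10 genes of polyamine synthesis and methionine salvage, with 1 reaching an unadjusted p of 0.05, and Sat1, a polyamine acetyltransferase gene, differed most (log2 fold change 0.69, adjusted p = 0.131, and 0.43 without HCD replicate 1). Of 9 nicotinamide genes edgeR called none and DESeq2 called Nampt higher, with 2 reaching an unadjusted p of 0.05. The aldehyde oxidase gene Aox3 had the largest difference of these, at 760, 856 and 926 CPM with RD and 129, 401 and 449 CPM with HCD. The Aox3 diets did not overlap, HCD replicate 1 was the lowest, and HCD minus RD was -1.38 in log2 units (SE 0.40, adjusted p = 0.101). Without HCD replicate 1 the Aox3 difference was smaller, at -0.996, and past the threshold (edgeR adjusted p = 0.0250), as it was with all livers and no filter on low counts (adjusted p = 0.0256).

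**Figure D5:**
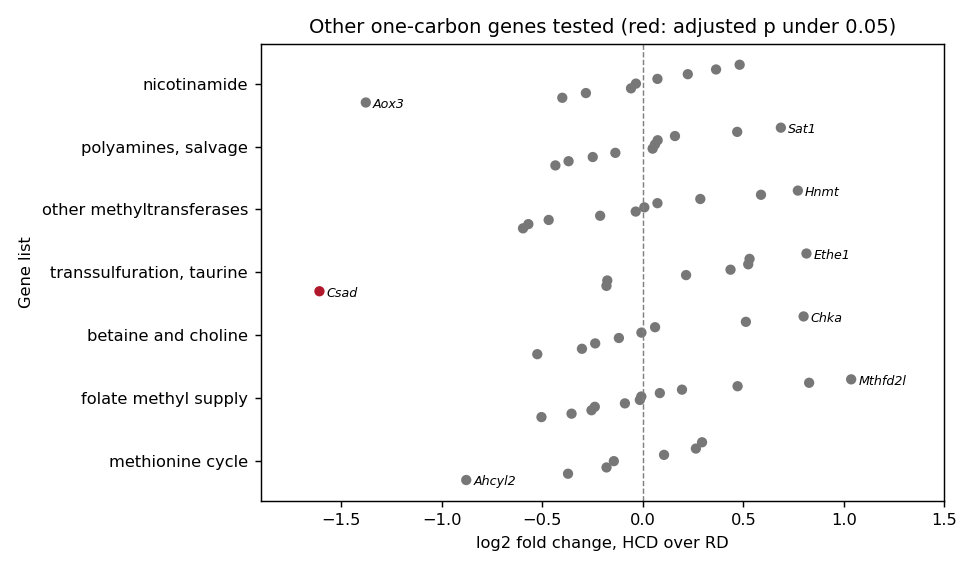
Log2 fold change of HCD over RD for the 64 tested genes of the 7 lists (1 point per gene, with names for the genes given with values in the text). Csad, at -1.61, is the gene in red, called at an adjusted p under 0.05.

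The genes whose levels over the 6 livers were most like those of Inmt were found by Pearson correlation of log2 CPM plus 0.5 among the 9107 tested genes that averaged 5 CPM or more. They were Lamtor4 (a subunit of the lysosomal Ragulator complex), Lsm4 (an RNA-binding protein of the spliceosome), the ribosomal protein genes Rpl34 and Rps26, and Csnk1g3 (a casein kinase), with r between 0.997 and 0.998. The difference between the diets sets most of these values, since the livers fall into groups by diet, and 181 of the 9107 genes had an r above 0.95. Their differences were much smaller than that of Inmt, with log2 fold changes of 0.63 for Lamtor4, 0.57 for Lsm4, 1.10 for Rpl34, 0.83 for Rps26 and 0.32 for Csnk1g3. Rpl34 was at 67.8, 65.2 and 74.4 CPM with RD and at 149, 156 and 141 CPM with HCD, with the livers in the same order within each diet as for Inmt. Ribosomal protein genes have many processed pseudogenes that can share their reads. Among the 10 genes themselves, r with Inmt was between -0.68 for Bhmt and 0.67 for Pemt.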

How the data were processed

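Liver RNA of 3 RD and 3 HCD mice was sequenced, 1 library per mouse. The authors deposited read counts per gene, whole numbers without normalization, and FPKM, which scale the fragments of a gene by its length and by the library total. Columns the authors deposited with log2 fold changes, p-values and adjusted p-values from their analysis were left out. Submitters' processing notes name STAR, HTSeq, DESeq2, edgeR and build GRCm39, without roles. Strand, library kit and annotation are not given in the sources used here. Gene positions are from GENCODE M21 on GRCm38, and the tables hold no coordinates; the lengths implied by counts and FPKM equalled M21 exon lengths to within 0.1% for 94.8% to 95.0% of the genes with at least 50 counts.

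Counts were fitted in R 4.3.3 with edgeR 4.0.16 (filterByExpr, TMM factors 0.886 to 1.07, quasi-likelihood F test of diet, Benjamini-Hochberg over 13105 genes, called at an adjusted p under 0.05). Standard errors are the log2 fold change over the square root of F. The script was tested on simulated data. The spread between livers, an estimated biological coefficient of variation of 27.8%, limits the precision more than depth, where a count of 0 allows up to 0.130 to 0.218 CPM (3 counts, counting error only). Labels do not say more about the mice, so p-values set the diet difference against the spread between these samples. Copies were found by aligning transcripts with minimap2 2.31 (at least 200 bases). Figures were drawn with matplotlib 3.10.9 in Python 3.11.15.

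The members and gene lists were chosen with earlier results of these data known. Named were all members, each other one-carbon gene called, the gene with the largest absolute log2 fold change among those not called in each list, and the 5 genes most correlated with Inmt. Alternatives were DESeq2 1.42.0, RLE factors, library sizes alone, no filter, a mean of at least 50 counts, limma 3.58.1 with a trend on log2-transformed FPKM (pseudocount 1 or 0.1), loess offsets for gene length (span 0.5), a replicate block, and each liver left out. Summing the reads of near-identical copies (at least 98% identity) was chosen after seeing the data.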

Additional observations from a re-analysis of the deposited data

How the results depend on the processing

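The log2 fold change of Inmt stayed above 0 in 16 alternatives, between 2.09 (length-trend offsets) and 2.28 with all 6 livers and between 2.10 and 2.40 with 1 liver left out. With length-trend offsets Pemt was at 0.11, Gamt at -0.34 and Cbs at -0.15, each over 1.5 times from its value in the text. Leaving out 1 liver moved Bhmt to -2.54 (without HCD replicate 3), changed the sign of Gamt and Mat1a, and took Gnmt to -0.20 and Cbs to -0.07 (both without RD replicate 3). Summing near-identical copies left Ahcy at 0.29 and Bhmt at -1.41.

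Leaving out 1 liver gave 17 to 229 genes called higher and 22 to 158 lower across the whole table, and of the other one-carbon genes 0 to 1 higher and 0 to 1 lower. The counts called higher and lower were 255 and 173 with all livers, 158 higher with library sizes alone, 285 lower without a filter, 636 and 482 with DESeq2, 115 lower with log2 of FPKM plus 0.1, and 138 and 113 with length-trend offsets. Of the other one-carbon genes, 2 were called higher and 2 lower without a filter, 1 higher (Hnmt) with a mean of at least 50 counts, and 4 higher (Chka, Ethe1, Hnmt and Nampt) and 3 lower (among them Csad) with DESeq2. The cause of these shifts was not tested. With the replicate block 71 genes were called higher and 65 lower. Same-numbered livers had correlations of deviations of -0.076, 0.088 and -0.041, against -0.107 to 0.133 for livers with different numbers. These values cannot tell whether the numbers pair the livers. With the block Inmt was at 2.25 and Csad stayed called (edgeR adjusted p = 0.0275).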
